A study of Mus musculus with 4 samples.

Results

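The 9 genes described here encode proteins of the acrosome, the secretory vesicle that caps the sperm nucleus. They were chosen by symbol, as genes for acrosomal matrix and acrosomal membrane proteins: Acr, Acrbp, Acrv1, Zp3r, Zpbp, Zpbp2, Spaca7, Spaca1 and Spaca3. All 9 were found among the 24420 gene symbols of the deposited table. RNA of freshly isolated testis was sequenced in 2 libraries labelled lrrc8a MUT (called MUT) and 2 labelled WT. In each pair of values below, library 1 of the genotype comes first. Both genotypes were of the FVB strain. The sources used here give neither the age of the mice nor the kind of mutation, and do not say if replicate libraries stem from different mice. The p-values below therefore reflect only how far these libraries spread, which may be technical. Each p-value also draws on the spread of other genes at a like level, not only on that of its own gene. Lrrc8a codes for an obligatory part of the volume-regulated anion channel, and the series concerns this channel in male infertility.

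The acrosome forms after meiosis, when vesicles from the Golgi apparatus fuse on the nucleus of the round spermatid and spread into a cap. Its matrix stores proteases and binding proteins, and its membranes carry proteins that hold the vesicle to the nucleus. On the way to the egg the acrosome fuses with the sperm plasma membrane and releases its contents. Sperm need this to pass the egg coat, the zona pellucida. The genes are transcribed in germ cells, mostly in spermatids, so in whole testis their RNA level depends both on how many such cells there are and on how much RNA each holds.

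Between 40426400 and 68192776 reads assigned to genes could be recovered per library from the steps of the deposited CPM. CPM are read counts scaled by a factor for each library. Their columns summed to 992486.9 (MUT 1), 987722.6 (MUT 2), 1011463 (WT 1) and 1008533 (WT 2). Rescaling to equal sums moved the median log2 fold change over all tested genes from -0.0016 to 0.0258. The sums of CPM given below are not rescaled. The 9 genes had between 4006 (Spaca7, MUT 2) and 39733 (Acrbp, WT 1) reads in a library. In the library with the fewest reads for a gene, counting error alone was 0.693% of the value for Acrbp and 1.58% for Spaca7, with the other 7 genes between them. Lrrc8a itself was at 13.49 and 15.86 CPM in the MUT libraries, against 18.21 and 17.15 CPM in the WT libraries. Its log2 fold change, MUT minus WT, was -0.26 (SE 0.0998) and did not pass limma's test over all genes (adjusted p = 0.218). Without MUT 1 it was -0.15. The labels call the cells germ cells and the source testis. Defining markers of germ cells and of somatic cells were both present: the protamine gene Prm2 was at 4524 to 5479 CPM, the Sertoli cell gene Clu at 669.9 to 766 CPM and the Leydig cell gene Cyp17a1 at 533 to 680.2 CPM. The 7 epididymis markers summed to between 0.7791 and 1.173 CPM, and none of them was tested because all 7 were below the minimum of 1 CPM in at least 2 libraries.

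All 9 are protein-coding genes and lie on 7 chromosomes of the mouse build GRCm38. Acr lies on chromosome 15 from 89568326 to 89574585, Acrbp on chromosome 6 from 125049689 to 125063267, Acrv1 on chromosome 9 from 36693220 to 36698843 and Spaca7 on chromosome 8 from 12573029 to 12600744, all on the plus strand. Zp3r (chromosome 1, 130576713 to 130629621) and Spaca1 (chromosome 4, 34024874 to 34050191) are on the minus strand. Chromosome 11 holds Zpbp (11279626 to 11462408, minus strand), Spaca3 (80858365 to 80867814, plus strand) and Zpbp2 (98551097 to 98558665, plus strand). Exons of an opposite-strand gene overlap those of Acrbp (4930557K07Rik), Zpbp (Spata48) and Spaca7 (D630011A20Rik). The sources used here do not say if the counting used strand. Reads in these overlaps may thus come from either gene, and how they were assigned, if at all, is not known. The table lists 4930557K07Rik at a mean of 5.48 CPM and Spata48, under its older symbol 4930415F15Rik, at 43.1 CPM, against 527.9 CPM for Acrbp and 187.8 CPM for Zpbp.

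All 9 genes were abundant in every library. Per kilobase of merged exons, which allows levels to be compared between genes, Acr was highest at a mean of 183.6 CPM per kb (SD 13.2 over the 4 libraries), followed by Acrbp at 161.1 (SD 12.6), Zpbp2 at 149 (SD 6.98) and Spaca3 at 134 (SD 8.19). The ranges of these 4 overlapped from each to the next, though within every library the 4 genes kept this order. Spaca7 at 98.69 (SD 5.05) and Spaca1 at 94.43 CPM per kb (SD 3.37) overlapped each other and lay below Spaca3 in every library. Zp3r at 64.85 (SD 4.13), Acrv1 at 57.21 (SD 3.03) and Zpbp at 44.21 CPM per kb (SD 2.72) were lowest, each below its neighbour without overlap. Among 15247 tested genes with a known exon length, the 9 genes stood between percentile 89.7 (Zpbp) and 98.2 (Acr). Part of the order depended on the length used: over the longest annotated transcript Acrbp was at 280.3 CPM per kb and came first, and Spaca1, at 125.9, came before Spaca7, at 99.92.

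**Figure D1:**
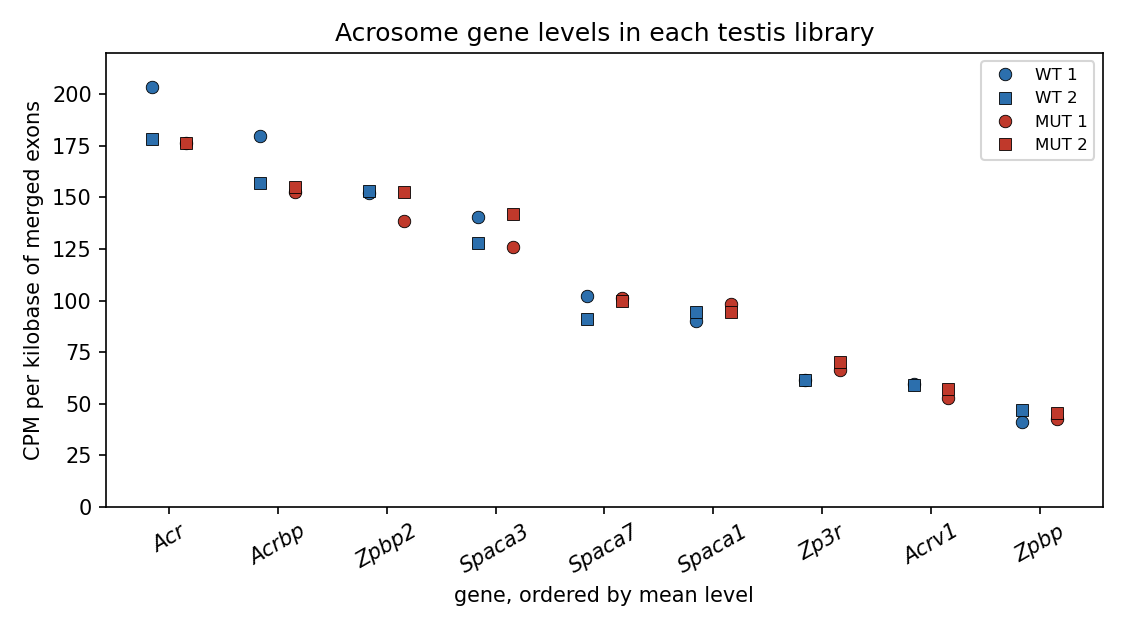
Level of each acrosome gene in CPM per kilobase of merged exons (vertical axis, from 0) in the 4 testis libraries; blue points are WT, red points MUT, circles library 1 and squares library 2. Acr is highest at 176.2 to 203.4 and Zpbp lowest at 41.35 to 47.23 CPM per kb, and the WT 1 points of Acr and Acrbp stand above the other 3 libraries.

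Promoter sequence, from RefSeq on GRCm38.p6, was at hand for 8 of the 9 genes, all but Acr. The 250 bases before each annotated start were searched on both strands for TGACG, the core of the cAMP response element that CREM, a transcription factor of spermatids, binds. The core was found in 4 of the 8 genes and in 19.8% of 27025 genes with a promoter sequence. The full palindrome TGACGTCA, which contains the core, was found in none of the 8 and in 1.77% of all genes. ACAATGG, a SOX-type motif, was found in Acrv1 alone among the 8 (3.46% of all genes), and TATAAA in Spaca7 alone (14.3%). These are matches of letters and show no binding. The windows of 30 bases around the core are printed below in the direction of transcription. The core, or its reverse complement CGTCA, is in capitals. They are shown because the genes that hold the core mostly stood higher per kilobase than those without it. Without division by length this did not hold for Spaca3 and Spaca1. At 127.5 CPM Spaca3 lay below Acrv1 (208.7), Zpbp (187.8) and Zp3r (137.6), which lack the core. Spaca1, at 150.7 CPM, lay below Acrv1 and Zpbp. The 4 genes with the core had mean levels of 94.43 to 161.1 CPM per kb of merged exons, and the 4 without it 44.21 to 98.69 CPM per kb. Over the longest transcript these ranges were 125.9 to 280.3 and 44.21 to 99.92 CPM per kb. This is a description of 8 genes, noticed after the levels were seen, with no test.
Acrbp, chr6:125049897-125049926, plus strand: cctcaccttctgTGACGtagcagccgcgcc
Spaca1, chr4:34050117-34050146, minus strand: cttcgaatggggTGACGcgcggTGACGcct
Spaca3, chr11:80858289-80858318, plus strand: cacaggtgatctTGACGaagttccgtgagt
Zpbp2, chr11:98550938-98550967, plus strand: gtttcctttactCGTCAcaccaccaggccg
Counted from the first-listed RefSeq start, the core began at position -18 in Acrbp, at -69 and -59 in Spaca1, at -62 in Spaca3 and at -147 in Zpbp2. Spaca1 was the only one of the 8 with more than 1 separate copy. The windows of Acrbp and Spaca1 overlap exons of these genes in the GENCODE annotation, whose gene bounds reach further upstream than the RefSeq start, and those of Spaca3 and Zpbp2 lie before the gene. Crem itself was at 201.5 and 207.9 CPM in the MUT libraries, against 217.7 and 213.1 CPM in the WT libraries, a difference that did not pass the test (log2 fold change -0.07, SE 0.0622, limma adjusted p = 0.624).

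Against WT testis, none of the 9 genes passed the test in MUT testis in either direction. Over all 15364 tested genes 115 were called (0.749%), 74 of them higher (0.482%) and 41 lower (0.267%). Leaving out WT 1 changed these counts to 133 and 177, and leaving out MUT 2 gave 86 lower. The test was limma on log2(CPM + 0.5), with a call at an adjusted p under 0.05 over all tested genes. The 9 log2 fold changes ran from -0.13 (Acrbp) to 0.15 (Zp3r), with 6 below 0 and 3 above, and their median was -0.005, against -0.0016 over all tested genes. At an unadjusted p under 0.05, 1 of the 9 (Zp3r) and 14.7% of all tested genes passed. None of the 9 was called by edgeR or DESeq2 on the recovered reads either. The 95% intervals bound the change that these libraries allow: the widest bounds among the 9 were a 1.22-fold higher level (Zp3r) and a level of 0.831 times that of WT (Acrbp). Summed over the 9 genes, the MUT libraries held 1899 and 1977 CPM and the WT libraries 2066 and 1959 CPM, so that the genotypes overlapped.

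The precursor of acrosin and its binding partner had lower mean values in MUT, with WT 1 alone standing apart. Acr encodes proacrosin, the zymogen of the main serine protease of the acrosomal matrix. It was at 276.6 and 276.1 CPM in the MUT libraries, against 318.8 and 279.6 CPM in the WT libraries. Acrbp encodes the protein that binds proacrosin and keeps it from maturing too early. It was at 499.3 and 508.4 CPM in the MUT libraries, against 589.3 and 514.4 CPM in the WT libraries. For both genes the MUT libraries lay below both WT libraries, but WT 2 was close to MUT and the high value was that of WT 1. The log2 fold change of Acr was -0.11 (SE 0.0675, 95% interval -0.25 to 0.03, limma adjusted p = 0.466), and that of Acrbp was -0.13 (SE 0.0663, interval -0.27 to 0.01, limma adjusted p = 0.38). Without WT 1 these values were -0.02 and -0.03, and without WT 2 they were -0.21 and -0.23. The ratio of Acrbp to Acr, a pair set side by side after the values were seen, was 1.81 and 1.84 in the MUT libraries, against 1.85 and 1.84 in the WT libraries. Both genes thus differed between libraries by nearly the same factor.

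Among the other matrix genes, the widest separation was that of Zp3r, which encodes sp56, a matrix protein that binds the zona pellucida. Zp3r was at 140.3 and 148.8 CPM in the MUT libraries, against 130.5 and 130.7 CPM in the WT libraries. Both MUT libraries were above both WT libraries. The WT libraries lay closer together than counting error, which was up to 1.28% for this gene, so their closeness does not measure the spread of WT. The difference between the genotypes was 1.11-fold (log2 fold change 0.15, SE 0.0656, limma unadjusted p = 0.0397). It failed the correction over all genes (limma adjusted p = 0.31). It ranged from 0.10 without MUT 2 to 0.19 without MUT 1 on the log2 scale. Acrv1, which encodes the matrix protein SP-10, lay the other way. It was at 192.9 and 209.2 CPM in the MUT libraries, against 217.5 and 215 CPM in the WT libraries, with the MUT libraries below the WT libraries and MUT 1 the lowest. Its log2 fold change was -0.11 (SE 0.0645, interval -0.24 to 0.03, limma adjusted p = 0.468), and it was -0.05 without MUT 1 and -0.16 without MUT 2.

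The paralogs Zpbp and Zpbp2 encode matrix proteins that bind the zona pellucida and are needed for a normally compacted acrosome. Zpbp was at 180.8 and 194.1 CPM in the MUT libraries, against 175.7 and 200.6 CPM in the WT libraries. The genotypes overlapped, both WT libraries lying outside the range of MUT, and the log2 fold change was -0.003 (SE 0.0716, interval -0.15 to 0.15, limma adjusted p = 0.99). Zpbp2 was at 233.2 and 256.6 CPM in the MUT libraries, against 256.1 and 257.5 CPM in the WT libraries. Here 3 libraries were nearly level and MUT 1 was lower, and without MUT 1 the log2 fold change of -0.07 (SE 0.0647, limma adjusted p = 0.659) became -0.001. Spaca7 encodes a protein that is released in the acrosome reaction. It was at 99.02 and 97.88 CPM in the MUT libraries, against 100.2 and 89.35 CPM in the WT libraries, where WT 2 was the low library and the genotypes overlapped (log2 fold change 0.06, SE 0.0721, limma adjusted p = 0.768). The sign turned without WT 2, at -0.03.

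Neither the gene of the acrosomal membrane protein nor that of the lysozyme-like protein passed the test. Spaca1 encodes a protein of the inner acrosomal membrane, without which mouse sperm are round-headed. It was at 157.2 and 151.1 CPM in the MUT libraries, against 144.1 and 150.4 CPM in the WT libraries. The genotypes did not overlap, but MUT 2 and WT 2 were nearly level (log2 fold change 0.07, SE 0.065, interval -0.07 to 0.20, limma adjusted p = 0.682). Spaca3 encodes SLLP1, a lysozyme-like acrosomal protein. It was at 119.8 and 134.8 CPM in the MUT libraries, against 133.5 and 121.8 CPM in the WT libraries, with MUT 2 and WT 1 high and MUT 1 and WT 2 low. Its log2 fold change was -0.005 (SE 0.0737, interval -0.16 to 0.15, limma adjusted p = 0.986). The signs of Zpbp and Spaca3 turned positive when the columns were rescaled to equal sums, rescaled without the 100 most abundant symbols or quantile normalized.

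**Figure D2:**
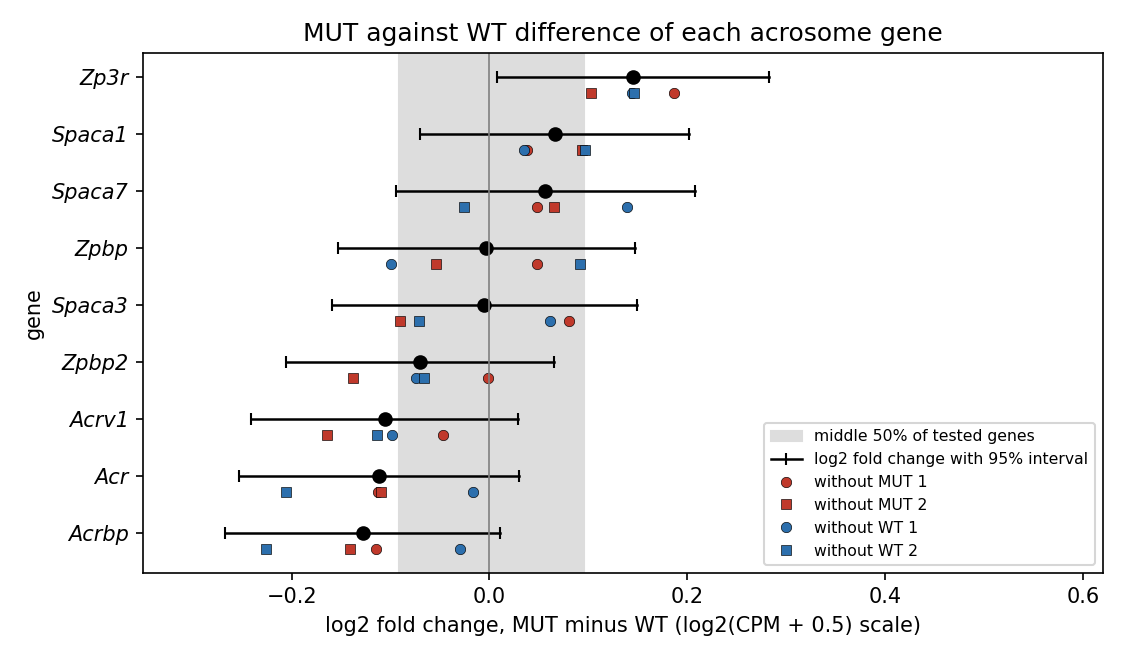
Log2 fold change, MUT minus WT, of each acrosome gene on the log2(CPM + 0.5) scale; black points and bars are the estimate and its 95% interval, colored points below each are the value when 1 library is left out, and the grey band holds the middle 50% of tested genes (-0.091 to 0.096). Only the interval of Zp3r leaves out 0, and the values of Acr and Acrbp without WT 1 lie near 0.

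The libraries of the 2 genotypes did not overlap for 5 of the 9 genes, Acr, Acrbp and Acrv1 with MUT lower and Zp3r and Spaca1 with MUT higher. This share is near the background, since the groups did not overlap for 45.6% of all tested genes, 23% with MUT higher and 22.6% with MUT lower. The highest library was WT 1 for 4 of the 9 genes, MUT 2 and WT 2 for 2 each and MUT 1 for 1, and the lowest was MUT 1 for 4 and WT 1 for 3. No library was thus high or low for all 9. The highest library exceeded the lowest by between 1.09-fold (Spaca1) and 1.18-fold (Acrbp). Among the 4364 tested genes with a mean of at least 50 CPM, the median of this ratio was 1.12. Averaged over the 9 genes, the libraries deviated from the gene means by -0.04 (MUT 1), 0.023 (MUT 2), 0.033 (WT 1) and -0.015 (WT 2) on the log2 scale. Of 7399 tested genes with a mean of at least 20 CPM, the 5 closest to this profile were Lrrc27, Spata16, Morn4, BB014433 and 2810025M15Rik, with root mean square differences of 0.00507 to 0.00597 over the 4 libraries. Spata16 encodes a Golgi protein needed to form the acrosome and was at 352.9 and 370.1 CPM in the MUT libraries, against 371 and 356.6 CPM in the WT libraries. With 4 libraries and so small a range, likeness of this kind describes these libraries only.

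**Figure D3:**
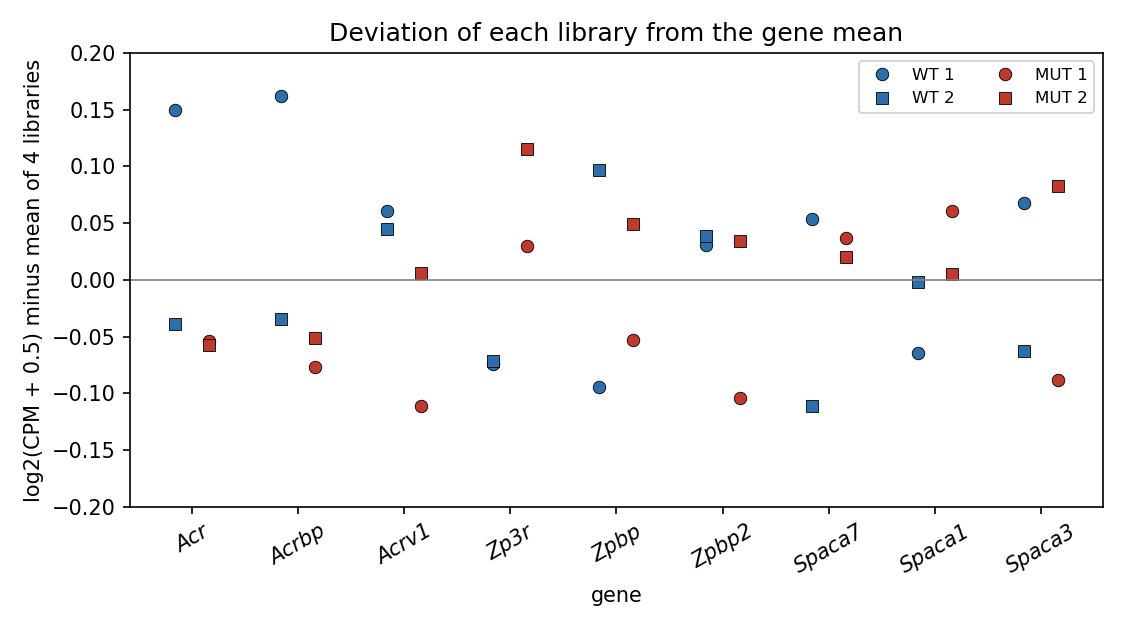
Deviation of each library from the mean of the 4 libraries, on the log2(CPM + 0.5) scale, for each acrosome gene; blue is WT, red is MUT, circles are library 1 and squares library 2. WT 1 stands at 0.15 for Acr and 0.162 for Acrbp with the other 3 libraries below 0, while for Zpbp and Spaca3 the genotypes interleave.

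Other acrosome genes were described in 4 lists. Of 88 genes listed, 86 were in the table (Spata46 and Spaca9 were not matched by symbol) and 79 were tested. Of these, 2 were called higher and 0 lower in MUT, both in the list of acrosome contents and surface. Of all tested genes, 0.482% were called higher and 0.267% lower, and the lists were chosen with earlier results of these data known. Serpina5, which encodes a serpin that inhibits acrosin and other serine proteases, rose to 203.2 ± 12.4 CPM in MUT from 155.7 ± 8.07 CPM (SD, n = 2) in WT. The MUT libraries were at 194.4 and 211.9 CPM, the WT libraries at 161.4 and 150 CPM, with no overlap. The change was 1.3-fold (0.38 on the log2 scale, SE 0.0679, limma adjusted p = 0.0103), and it lost its call without MUT 2 (limma adjusted p = 0.0757). Zan, which encodes zonadhesin, an acrosomal protein that binds the zona pellucida, rose from 110.7 ± 8.13 to 137.3 ± 2.6 CPM (SD, n = 2). It was at 135.4 and 139.1 CPM in the MUT libraries, against 116.4 and 104.9 CPM in the WT libraries, again with no overlap (log2 fold change 0.31, SE 0.0696, limma adjusted p = 0.0411). The call of Zan was lost in 9 of the 19 alternatives, among them without MUT 1 (limma adjusted p = 0.114), without MUT 2 (0.143) and without WT 2 (0.136), and, with all libraries, once trends on GC content and transcript length were removed (0.116) and after quantile normalization (0.0546). Without the filter on low values or without the variance trend neither gene was called, with limma adjusted p of 0.145 and 0.204 for Serpina5 and 0.223 and 0.263 for Zan. Serpina5 lies on chromosome 12 from 104101113 to 104106137 on the plus strand. Zan lies on chromosome 5 from 137378637 to 137477064 on the minus strand, and its end overlaps that of Ephb4 on the opposite strand, which was at 5.41 CPM.

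Marker lists of other cells differed in sign. The summed levels of the Leydig, Sertoli and macrophage markers were higher in both MUT libraries than in both WT libraries. Those of the peritubular myoid, endothelial and pachytene to secondary spermatocyte markers were lower in both. Such sums follow their most abundant markers, and for single genes the genotypes did not overlap for 45.6% of all tested genes. Of all tested genes, 0.482% were called higher and 0.267% lower. The 9 Leydig markers summed to 1243 and 1296 CPM in the MUT libraries, against 1102 and 1071 CPM in the WT libraries. Their median log2 fold change was 0.275, with 7 values above 0 and 2 below, Insl3 (-0.28) and Hsd3b6 (-0.007). Of these 9, 1 was called higher, Cyp17a1, which encodes an enzyme of androgen synthesis (0.28, SE 0.0604, limma adjusted p = 0.0361). It was the most abundant of the 9, at 657.1 and 680.2 CPM in the MUT libraries, against 572.5 and 533 CPM in the WT libraries. The 10 Sertoli markers summed to 1345 and 1360 CPM in the MUT libraries, against 1295 and 1229 CPM in the WT libraries, with a median of 0.12 and no call. The 7 peritubular myoid markers lay the other way, all 7 below 0 with a median of -0.213 and no call. They summed to 377 and 397 CPM in the MUT libraries, against 430.2 and 415.9 CPM in the WT libraries. Most of these sums came from Actg2, at 274.3 and 285.4 CPM in the MUT libraries, against 302.5 and 296.1 CPM in the WT libraries. The 8 macrophage markers summed to 94.1 and 95.56 CPM in the MUT libraries, against 89.68 and 87.76 CPM in the WT libraries. Of the 7 of these that were tested, 5 values were above 0 and 2 below, with a median of 0.03. The most abundant, Mrc1, was at 38.4 and 33.72 CPM in the MUT libraries, against 28.6 and 31.32 CPM in the WT libraries. The 1 call was Cd74, the invariant chain of antigen presentation, which was lower (-0.59, SE 0.126, limma adjusted p = 0.0329). The 6 endothelial markers had a median of 0.028, with 4 values above 0 and 2 below. They summed to 44.12 and 44.81 CPM in the MUT libraries, against 46 and 46.02 CPM in the WT libraries. Vwf, the most abundant of them, was at 23.86 and 21.31 CPM in the MUT libraries, against 25.16 and 24.63 CPM in the WT libraries. None of these markers was at 0. Calls were lost without MUT 1 (0.0907), MUT 2 (0.162) or WT 2 (0.124) for Cyp17a1 and without WT 1 (0.142) for Cd74, as limma adjusted p. Whether these cells contribute to the values of Serpina5 and Zan was not tested.

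The rest of the 24 tested genes of the contents and surface list were not called. The list had 9 values above 0 and 15 below, with a median log2 fold change of -0.031. Crisp2, which encodes a cysteine-rich secretory protein of the acrosome and the tail, was the most abundant, at 1464 and 1538 CPM in the MUT libraries, against 1639 and 1756 CPM in the WT libraries (log2 fold change -0.18, SE 0.0589, limma adjusted p = 0.166). Dkkl1, which encodes a secreted acrosomal protein, had a similar difference, at 864.2 and 907.5 CPM in the MUT libraries, against 987.5 and 1011 CPM in the WT libraries (-0.17, SE 0.0578, limma adjusted p = 0.166). In both, the MUT libraries lay below the WT libraries.

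None of the 23 genes of acrosome biogenesis was called, and their median log2 fold change was 0.011, with 12 above 0 and 11 below. The smallest p-values were those of Fam209, a partner of the nuclear envelope protein that anchors the acrosome (115 CPM in MUT, 101.6 CPM in WT), Fndc3a (267.3 and 238 CPM) and Vps13b (96.01 and 86.33 CPM), with limma adjusted p of 0.215, 0.216 and 0.314. Ccdc136 was the most abundant, at a mean of 1788 ± 63.9 CPM in MUT, against 1776 ± 92.9 CPM for WT (SD, n = 2). In the list of the acroplaxome and perinuclear theca, cytoskeletal layers around the sperm nucleus, none of 14 tested genes was called. Their median log2 fold change was -0.106, and 12 of the 14 values were below 0, against 50.4% of all tested genes. Plcz1, which encodes the sperm phospholipase that activates the egg, was at 231.1 and 220.8 CPM in the MUT libraries, against 245.6 and 295.5 CPM in the WT libraries (log2 fold change -0.25, SE 0.0755, limma adjusted p = 0.119). WT 2 was its highest library: the value was -0.39 and called without WT 1 (limma adjusted p = 0.00391), and -0.12 without WT 2 (0.477). Capza3, which encodes an actin-capping subunit of spermatids, was at a mean of 174.8 CPM in MUT, against 196.7 CPM for WT (limma adjusted p = 0.261), and Actl7b, the most abundant, at 707.6 and 757.4 CPM (0.52). Myo5a, which encodes an actin motor found in many cell types, had the largest value of the list at 0.35 (SE 0.0843, limma adjusted p = 0.0599), with a mean of 31.19 CPM in MUT and of 24.34 CPM in WT. It was called in 6 of 19 alternative analyses.

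Of 24 genes of acrosomal exocytosis 18 were tested and none was called, with a median log2 fold change of 0.006. Trpc2 was at 0 in every library, as was Krt5 of the preceding list; with a limit of 3 reads, which covers counting error only, this allows up to 0.0445 (WT 1) to 0.0733 CPM (MUT 2). Of the vesicle SNARE genes, Vamp1 was at a mean of 3.899 CPM in MUT, against 3.066 CPM for WT, Vamp2 at 28.07 and 31.37 CPM and Vamp3 at 57.2 and 52.19 CPM, with limma adjusted p of 0.306, 0.377 and 0.438. The most abundant, Plcd4, which encodes a phospholipase that acts in the acrosome reaction, was at a mean of 212.9 ± 9.77 CPM in MUT, against 211.6 ± 11.9 CPM for WT (SD, n = 2).

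Spermatid markers, those of the cells that make the acrosome, showed no call either. The 12 round spermatid markers had a median log2 fold change of 0.023 and summed to 2018 and 2050 CPM in the MUT libraries, against 2054 and 1929 CPM in the WT libraries. The 12 elongating spermatid markers had a median of -0.066 and summed to 19420 and 18690 CPM in the MUT libraries, against 20900 and 19020 CPM in the WT libraries. WT 1 was the highest library for the elongating spermatid sum, as it was for Acr and Acrbp. For the round spermatid sum WT 1 and MUT 2 were nearly level, and these sums are not rescaled. None of the 24 markers was at 0 in all libraries. Among earlier germ cells, the 7 tested spermatogonia markers had a median of 0.193 and 1 call, Kit, which encodes a receptor of differentiating spermatogonia that Leydig cells also express (0.46, SE 0.0987, limma adjusted p = 0.0329; lost without MUT 2 at 0.106 and without WT 1 at 0.0977). Of all tested genes, 0.482% were called higher and 0.267% lower. The spermatogonia list summed to 96.79 and 94.92 CPM in the MUT libraries, against 84.83 and 95.5 CPM in the WT libraries, so that the genotypes overlapped. The meiotic prophase markers had a median of -0.027 and overlapped as well. The pachytene to secondary spermatocyte markers, with a median of -0.054, summed to 7385 and 7423 CPM in the MUT libraries, against 7706 and 7652 CPM in the WT libraries. Neither of these lists held a call. Fewer spermatids and less RNA per spermatid cannot be told apart in these libraries of whole tissue, and CPM, being shares, need not show a change in the total amount of spermatid RNA.

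**Figure D4:**
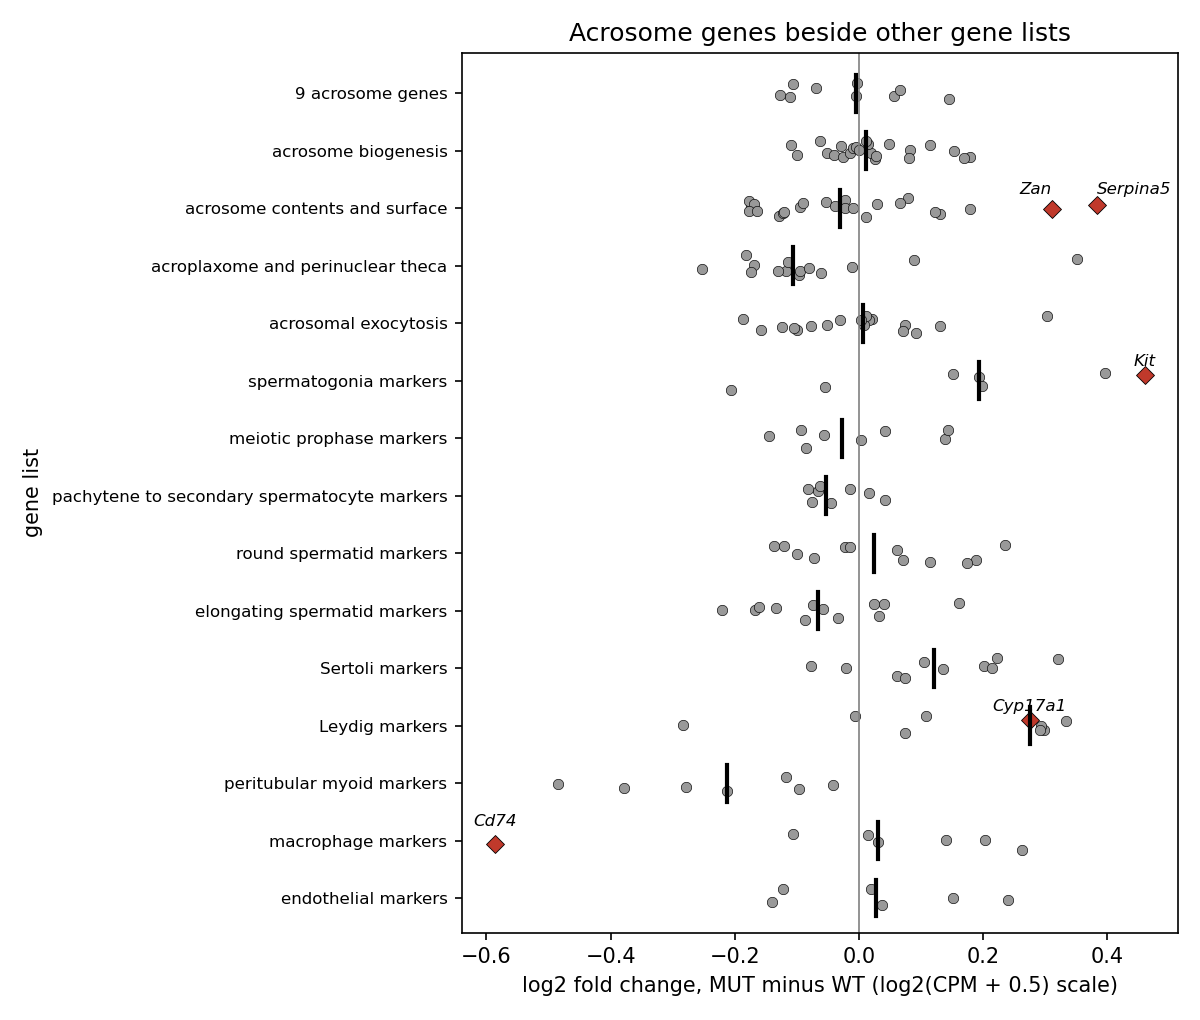
Log2 fold change, MUT minus WT, on the log2(CPM + 0.5) scale for the tested genes of the acrosome lists and of each cell type's marker list (epididymis markers were not tested); each point is a gene, red diamonds are genes called at an adjusted p under 0.05 and black bars are list medians. The 9 acrosome genes lie between -0.128 and 0.145 around a median of -0.005, and the called genes are Serpina5, Zan, Kit and Cyp17a1, above 0, and Cd74, below 0.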

How the data were processed

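The authors deposited a table of CPM for 24420 symbols. The tools named, per the submitters' processing notes and with no role or order, are HTSeq 0.6.0, TopHat2 2.0.10 and edgeR 3.8.6, and the build is mm10. All values (100%) lay within 0.001 of a whole multiple of the smallest in their library, which recovered the reads. Symbols with at least 1 CPM in at least 2 libraries were tested with limma 3.58.1 in R 4.3.3 (lmFit, eBayes with a mean-variance trend) on log2(CPM + 0.5), MUT against WT, two-sided, with Benjamini-Hochberg adjustment over 15364 genes. Fold changes on this scale understate changes of weakly expressed genes. The recovered reads were also tested with DESeq2 1.42.0 and with the quasi-likelihood test of edgeR 4.0.16, and other alternatives varied pseudocount, filter, scaling, variance, block, GC content and length, and the library left out. GC content and length were at hand for 99.24% of tested genes. Positions and lengths come from GENCODE vM21 (GRCm38). The members and lists were chosen with earlier results of these data known. The genes named are the 9 members, Lrrc8a, from each other acrosome list any called gene, the 3 with the smallest p and the most abundant, the 5 closest in profile, and the most abundant cell type markers. Called cell type markers, Insl3, Hsd3b6, Crem, Trpc2, Krt5 and the genes not matched or overlapping were added after values were seen.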

Additional observations from a re-analysis of the deposited data

How the results depend on the processing

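None of the 9 acrosome genes was called in any of the 19 alternatives. Zpbp had a log2 fold change of 0.025 when rescaled to equal sums, 0.023 after quantile normalization and 0.019 when scaled without the 100 most abundant symbols, and Spaca3 had 0.024, 0.025 and 0.017, and 0.027 after GC and length correction with or without the replicate block. When single libraries were left out, Zpbp ranged from -0.099 to 0.092, Spaca3 from -0.09 to 0.08, Spaca7 from -0.026 to 0.139, Plcd4 from -0.049 to 0.066 and Ccdc136 from -0.043 to 0.064, and the median of the 9 genes from -0.09 to 0.038. After GC and length correction with or without the block Plcd4 was at -0.022. Against 74 higher and 41 lower genes of all tested, there were 5 and 2 without the variance trend, 7 and 4 without the filter, 35 and 18 under quantile normalization, and 21 and 13 with GC and length correction and block. Rescaling to equal sums gave 122 higher (78.2% of calls, against 64.3%) and scaling without the 100 most abundant symbols 113 (75.3%). DESeq2 gave 71 lower. Leaving out single libraries gave 67 to 133 higher and 42 to 177 lower. The cause was not tested. Libraries with equal replicate numbers did not deviate together (correlation of deviations -0.134), so the numbers are not taken as pairs; with the replicate block 57 higher and 31 lower genes were called, while Zan and Cyp17a1 were not (limma adjusted p of 0.0795 and 0.0514). The crossed pairing, tried after seeing the data, gave 131 and 104. Levels per kb over the longest transcript were 280.3 (Acrbp), 159.1 (Zpbp2), 125.9 (Spaca1) and 63.91 (Acrv1). Serpina5 was called in 16 of 19 alternatives, Zan in 10, Cd74 in 13 and Kit and Cyp17a1 in 12 each. With the lone library of a genotype, its spread is assumed to equal that of the other genotype.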
